A study of Mus musculus with 19 samples.

Results

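The genes described are 45 genes of macrophages and dendritic cells, taken by symbol from a table of 32694 mouse genes, and all 45 were found in it. The study measured poly-A RNA in 19 libraries of mouse colon, each from a different animal aged 12 weeks. Wild-type colon came from 3 females and 2 males. Apc tumours were single colon tumours from 3 females and 4 males in which Villin-Cre had removed 1 allele of Apc, which encodes a brake on Wnt signalling in gut epithelium. Apc/Tgif tumours were single colon tumours from 3 females and 4 males that carried the same Apc deletion and had also lost both alleles of Tgif1 and of Tgif2, which encode transcriptional repressors that limit TGF-beta signalling. Villin-Cre acts in the intestinal epithelium, so the deletions were directed at the epithelium and not at the macrophages or dendritic cells of the same tissue. No strain is given, and the wild-type tissue is whole colon whereas the other samples are tumours. The comparison of the tumours with wild-type colon asks how tumour tissue differs from colon, and the comparison of the tumour genotypes asks what the loss of both Tgif genes adds.

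Macrophages of the colon take up dead cells and bacteria, present antigen and release complement components, and they depend on signals through the receptor encoded by Csf1r. Most of them arise from blood monocytes, and long-lived resident cells are marked in mice by genes such as Timd4, Folr2 and Cd163. Dendritic cells depend on the receptor encoded by Flt3 and carry antigen to T cells; Clec9a marks the conventional type that cross-presents antigen and Siglech marks the plasmacytoid type. The libraries are bulk tissue, so fewer cells of a type and less RNA per cell cannot be told apart. Several members are also made by other cells: neutrophils and mast cells express Tyrobp, Fcer1g or Fcgr3, and epithelial or stromal cells express Apoe, Hmox1, Tgfbi, Axl and Cd274.

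The 3 genes of the complement component C1q, whose protein chains A, B and C join in 1 molecule, lie side by side on the minus strand of mouse chromosome 4 (GRCm38), in the order C1qb, C1qc, C1qa from 136880129 to 136898803. The cluster spans 18675 bases, its gaps are 3616 and 2851 bases long, and the annotation places no other gene between them. The bases just before the starts of C1qb and C1qc are shown because no Apc/Tgif tumour overlapped an Apc tumour for either gene. Those of Fcgr1 and Trem2 are examples from the members that were higher in both kinds of tumour than in wild-type colon. The sequences are from RefSeq (GRCm38.p6), read 5′ to 3′ on the gene's strand. Capitals mark the letters GAGGAA or their reverse complement TTCCTC, the core of the site bound by the transcription factor that Spi1 encodes. Every sequence shown holds these letters. Those of Fcer1g, Mpeg1 and Tgfbi, also called higher in both kinds of tumour, do not hold them and are not shown.
C1qb, chr4:136886201-136886450, minus strand: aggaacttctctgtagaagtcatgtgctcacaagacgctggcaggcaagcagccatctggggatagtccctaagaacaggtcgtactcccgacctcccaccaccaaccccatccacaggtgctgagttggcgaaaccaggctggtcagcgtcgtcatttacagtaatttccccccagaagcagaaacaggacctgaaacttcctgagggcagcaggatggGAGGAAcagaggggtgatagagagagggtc
C1qc, chr4:136893066-136893164, minus strand: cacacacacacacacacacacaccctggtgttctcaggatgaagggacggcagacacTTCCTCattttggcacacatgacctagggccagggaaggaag
Fcgr1, chr3:96293970-96294219, minus strand: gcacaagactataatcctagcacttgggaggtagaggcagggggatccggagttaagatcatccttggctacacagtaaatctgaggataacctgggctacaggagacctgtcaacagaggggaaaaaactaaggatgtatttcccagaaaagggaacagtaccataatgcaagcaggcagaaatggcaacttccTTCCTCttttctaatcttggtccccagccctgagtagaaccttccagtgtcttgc
Trem2, chr17:48346151-48346400, plus strand: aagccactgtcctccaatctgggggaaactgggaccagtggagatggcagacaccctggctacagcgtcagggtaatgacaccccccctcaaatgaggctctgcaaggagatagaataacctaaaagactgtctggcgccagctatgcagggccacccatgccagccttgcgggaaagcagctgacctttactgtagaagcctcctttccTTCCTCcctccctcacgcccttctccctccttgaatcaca

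A sequence of the 250 bases before the start was at hand for 32 of the 45 members. The 6 letters occurred on either strand in 15 of these 32, or 46.9%, against 6986 of 27025 genes with such a sequence, or 25.9%. The 15 were C1qb, C1qc, Fcgr1, Fcgr3, Trem2, Cd68, Cd300a, Marco, Apoe, Batf3, Aif1, Mrc1, Vsig4, Stab1 and Axl. The last 6 of these were called in no comparison of the groups with the sexes together. The match is a description of letters and shows no binding.

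**Figure D1:**
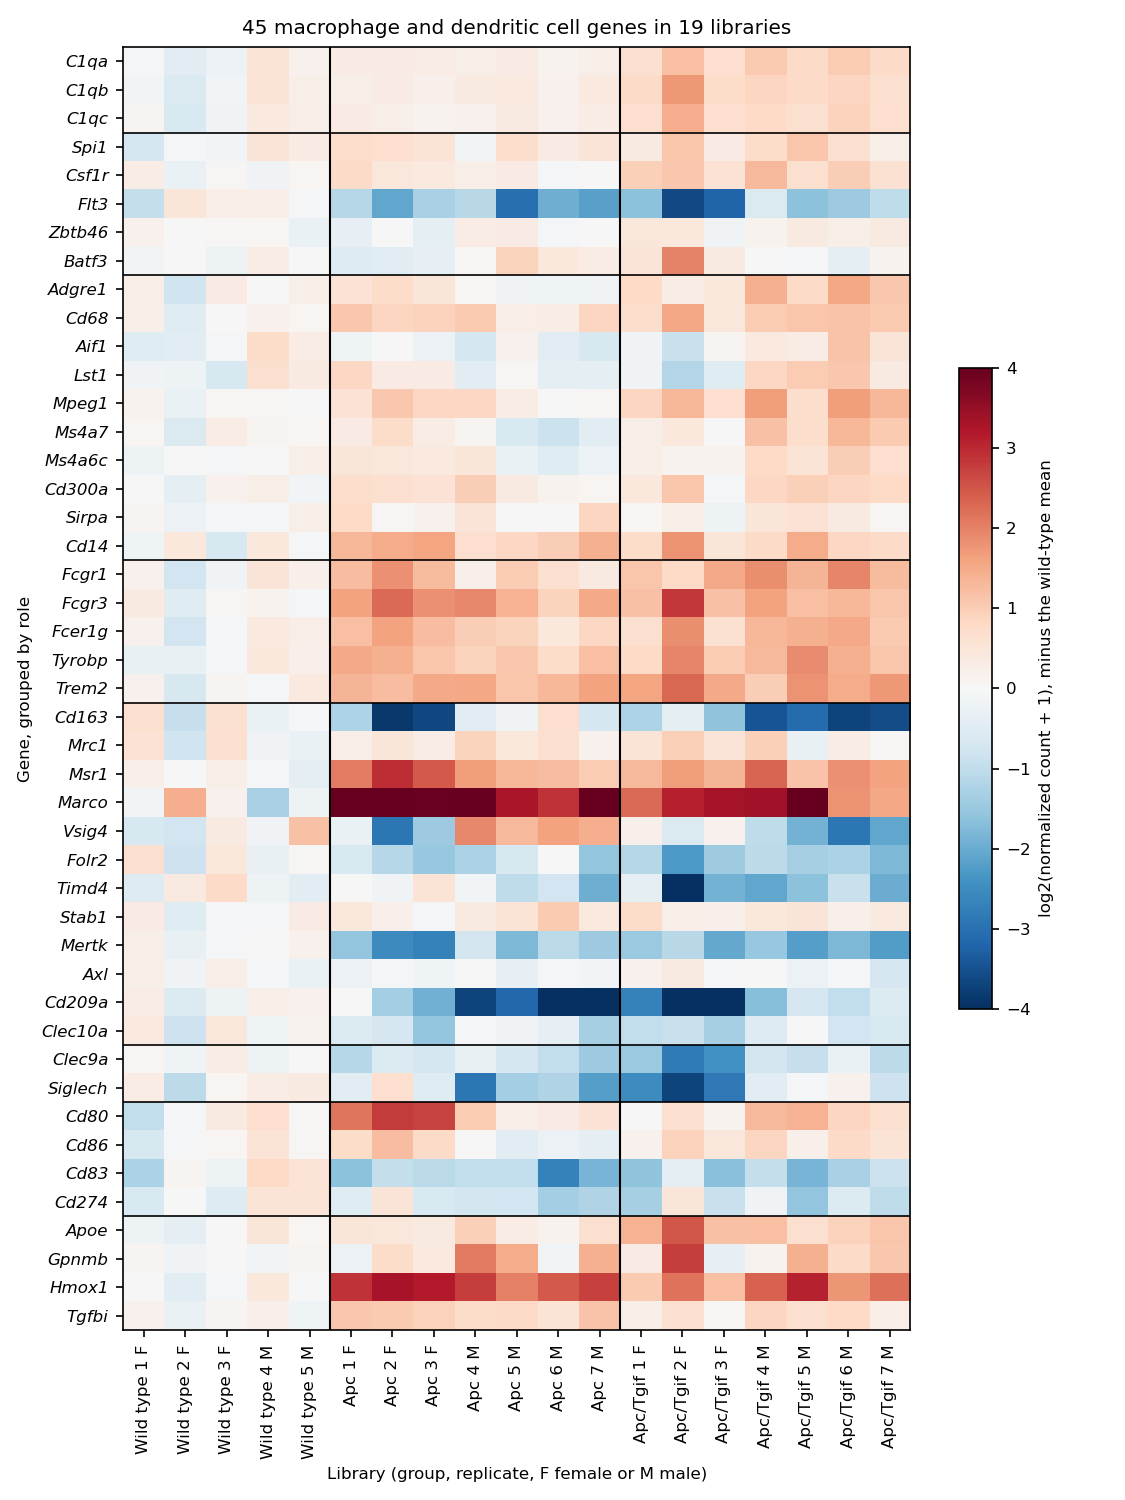
Each row is a gene and each column a library; colour gives log2(normalized count + 1) minus the wild-type mean, from -4 (blue) to 4 (red), with values beyond the scale shown at its ends. The 3 C1q rows are redder in all 7 Apc/Tgif tumours than in the 7 Apc tumours, and Cd163, Vsig4, Cd209a and Siglech change colour between the sexes within each tumour genotype.

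Values are normalized counts as the authors deposited them, and differences are on the log2(normalized count + 1) scale, tested with limma across 18445 genes with sex in the model. A gene was called at a Benjamini-Hochberg adjusted p under 0.05. Library totals ran from 34417808 to 44732717 normalized counts, and 1 read was worth 0.743 to 1.44 units. All 45 members passed the filter on low values. Marco passed it only through the tumours, since none of its wild-type values reached the minimum of 10, so its difference from wild-type colon is given as values with no test. Vsig4 reached 10 only in the male Apc tumours and wild-type replicate 5, so calls of its sex difference between the tumours support nothing. Means were under 50 in every group for 6 members, whose values rest on few reads, namely Vsig4, Timd4, Cd209a, Clec10a, Clec9a and Siglech.

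Facts of the whole series bear on these values. Tgif1 fell between tumours, from 2785 to 4965 in Apc to 251 to 654 in Apc/Tgif tumours. Tgif2 rose, from 476 to 764 to 2141 to 3107, although its label is null; which part of the gene was deleted is not given, so its total does not check the label, and the directions given for the Apc/Tgif tumours rest on the labels. The sex labels matched Xist, which was at 19659 to 39232 in the 9 females and 4.27 to 80.0 in the 10 males. Smooth muscle genes summed to 210239 to 313830 in wild-type colon and to 10257 to 23142 in the tumours, with all 10 of the list lower. The 10 epithelial genes were measured in every library, with sums from 319543 to 715306. The ribosomal RNA gene Rn45s took over 2% of the total in 3 libraries, at 2.93% and 3.5% in wild-type replicates 2 and 4 and 9.35% in Apc/Tgif replicate 5. Apc/Tgif replicate 2, a female, was the highest library for Apoe, Fcgr3, C1qb, C1qc and Batf3, and for other members such as C1qa, Cd14 and Tyrobp.

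Against wild-type colon, 13 of the 45 members, Marco included, were higher in Apc tumours (28.9%, where 23.9% of all genes tested were called higher) and 7 were lower (15.6%, against 25.2%). In Apc/Tgif tumours 20 members, again with Marco, were higher (44.4%, against 24.8%) and 9 were lower (20%, against 25.5%). These comparisons share their wild-type libraries. Marco passed the filter only through the tumours, so its call supports nothing, and the higher counts and shares still include it. In both genotypes 12 members, Marco among them, were called higher and 7 lower. In Apc/Tgif tumours alone 8 were called higher and 2 lower, Cd80 was called higher in Apc tumours alone, and 15 were called in neither. Between the tumour genotypes 7 members were higher in Apc/Tgif tumours (15.6%, against 7.88% of all genes) and 2 were lower (4.44%, against 8.76%). The median log2 difference of the members was 0.28, 0.61 and 0.16 in the 3 comparisons, beside -0.012, 0.0016 and -0.014 for all genes. With library totals set equal, the medians of all genes became 0.188, 0.152 and -0.062. The higher share of all calls went from 48.8% to 64.3%, from 49.3% to 60.2% and from 47.4% to 36.9%. Members higher in Apc tumours then numbered 23 in place of 13, and all genes called higher there 6160 in place of 4415.

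**Figure D2:**
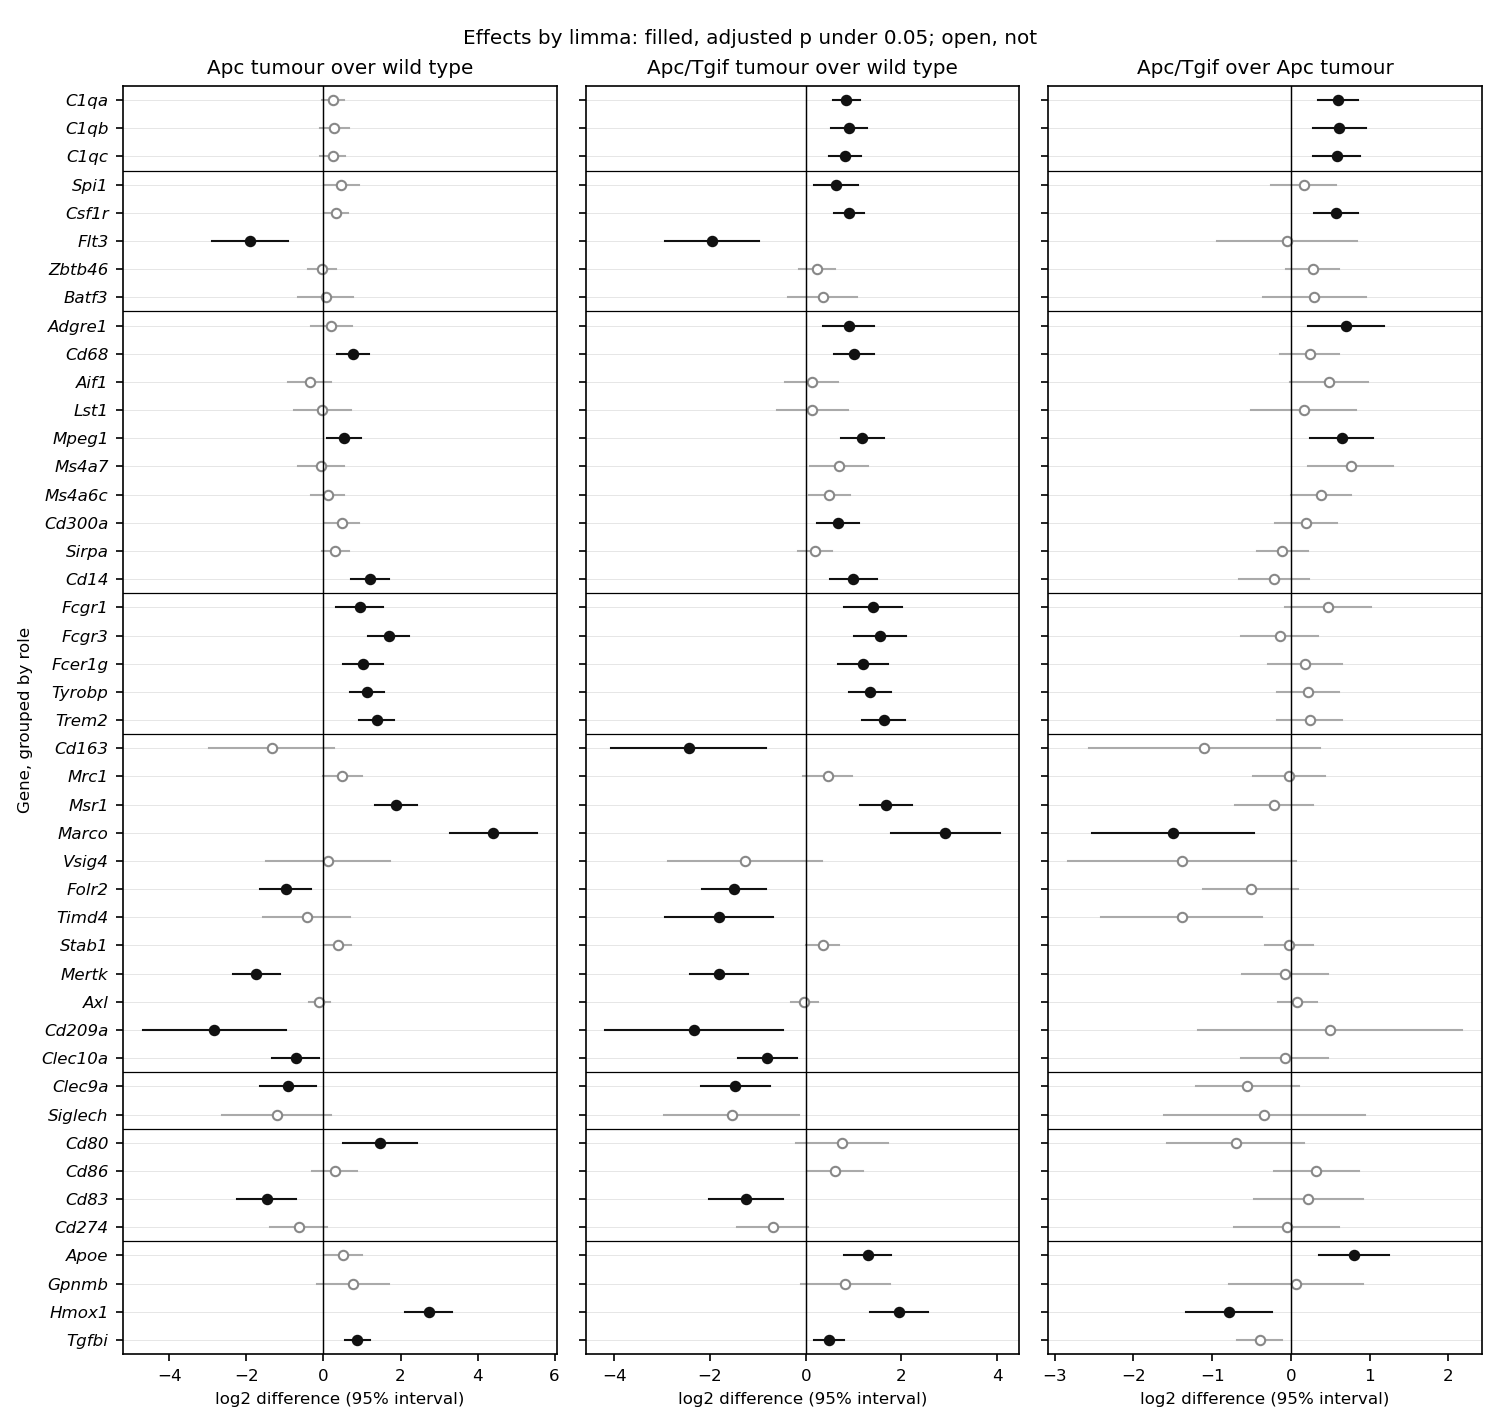
Points are log2 differences from limma with 95% intervals for the 45 members, grouped by role, in the 3 comparisons; filled points have an adjusted p under 0.05, which for Marco against wild-type colon supports nothing since it passed the filter through the tumours. The Fc receptor and adaptor genes lie above 0 against wild-type colon in both genotypes, and C1qa, C1qb, C1qc, Csf1r, Adgre1, Mpeg1 and Apoe lie above 0 between the genotypes.

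The complement genes separated the tumour genotypes. C1qa stood at 1210.0, 907, 1060.4, 1805 and 1379.6 in the wild-type colons. Its lowest, median and highest values were 1350.1, 1520.0 and 1568 in Apc tumours and 1909.8, 2126 and 2854 in Apc/Tgif tumours. All 7 Apc/Tgif tumours lay above all 7 Apc tumours and above all 5 wild-type colons, while Apc tumours overlapped wild-type colon. The log2 difference between the genotypes was 0.60 ± 0.12 (SE; adjusted p = 0.00255), against wild-type colon it was 0.85 ± 0.14 (adjusted p = 3.73e-05) in Apc/Tgif tumours, and in Apc tumours it was 0.25 ± 0.14 (adjusted p = 0.14).

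C1qb showed the same order of groups. It stood at 1089, 802, 1109, 1720.0 and 1409 in wild-type colon, at 1329, 1494 and 1559.5 (lowest, median, highest) in Apc tumours and at 1857, 2031 and 3983 in Apc/Tgif tumours. C1qc stood at 1181, 723, 986, 1444 and 1291 in wild-type colon, at 1210.2, 1289 and 1419.5 in Apc tumours and at 1721, 1755 and 2973 in Apc/Tgif tumours. Again no Apc/Tgif tumour overlapped an Apc tumour or a wild-type colon. The genotypes differed by 0.62 ± 0.16 for C1qb (adjusted p = 0.0132) and 0.58 ± 0.14 for C1qc (adjusted p = 0.00798). Without Apc/Tgif replicate 2, whose values are the highest, these differences were 0.46 (adjusted p = 0.0101) and 0.47 (adjusted p = 0.0095). Against wild-type colon C1qb was 0.28 ± 0.18 in Apc tumours (adjusted p = 0.202) and C1qc 0.24 ± 0.16 (adjusted p = 0.226). With library totals set equal, C1qa, C1qb and C1qc were called higher there, at 0.45, 0.49 and 0.44 (adjusted p = 0.00915, 0.0258 and 0.0251). With 1 mean per group and sex, that comparison gave 0.56, 0.53 and 0.45 in females (adjusted p = 0.0078, 0.0445 and 0.0621). In males it gave -0.12, -0.07 and -0.06, none called. Apc/Tgif tumours were called higher than wild-type colon for all 3 genes in females. In males they were called for C1qa (0.55, adjusted p = 0.0129) and not for C1qb or C1qc (0.40 and 0.44, adjusted p = 0.152 and 0.0866). The sex difference passed the threshold for none of the 3.

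**Figure D3:**
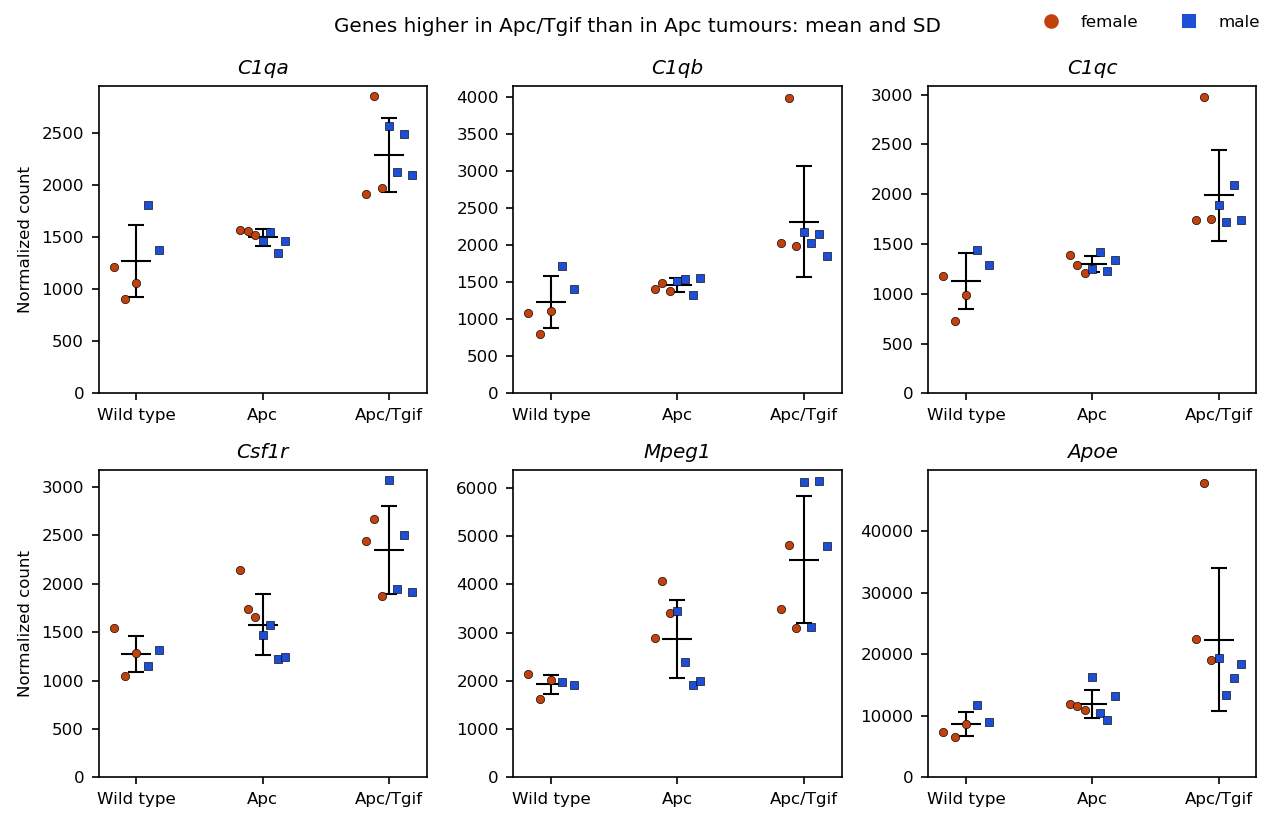
Each point is the normalized count of 1 library, circles for females and squares for males, with the group mean and SD, for 5 wild-type colons, 7 Apc tumours and 7 Apc/Tgif tumours. The lowest Apc/Tgif value of each C1q gene lies above the highest Apc value, and Apc/Tgif replicate 2 is the highest point for C1qa, C1qb, C1qc and Apoe.

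Of the growth factor receptors and lineage factors, Csf1r, the receptor for the macrophage growth factors encoded by Csf1 and Il34, rose between the tumour genotypes. It stood at 1544, 1051, 1290.0, 1155 and 1320.3 in wild-type colon, at 1223, 1575 and 2142 in Apc tumours and at 1875, 2446 and 3075 in Apc/Tgif tumours. Apc/Tgif tumours lay above all wild-type colons and overlapped the Apc tumours at the single highest Apc value. The log2 difference was 0.57 ± 0.13 between the genotypes (adjusted p = 0.00616), 0.90 ± 0.15 from wild-type colon to Apc/Tgif tumours (adjusted p = 4.65e-05) and 0.33 ± 0.15 to Apc tumours (adjusted p = 0.0751). With library totals set equal, Csf1r was called higher in Apc tumours too, at 0.53 (adjusted p = 0.00966). Csf1r shares 873 exon bases with Hmgxb3 on the other strand, and since strand is not given for these counts the reads of the pair cannot be told apart. Spi1, which encodes the factor PU.1 needed for myeloid cells, averaged 244 ± 74.6 (SD, n = 5), 333 ± 59.1 (n = 7) and 377 ± 97.1 (n = 7), in wild-type colon, Apc and Apc/Tgif tumours, and the last was called higher than the first by 0.63 (adjusted p = 0.0223). That call was lost without wild-type replicate 1 or Apc/Tgif replicate 2, at 0.47 and 0.52.

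Flt3, the dendritic cell growth factor receptor, moved the other way. It averaged 80.9 ± 26.2 (SD) in wild-type colon against 23.0 ± 10.2 for Apc and 25.2 ± 16.0 for Apc/Tgif tumours. The falls were 1.90 and 1.95 on the log2 scale (adjusted p = 0.00236 and 0.0018), and the genotypes did not differ past the threshold (-0.05, adjusted p = 0.957). Zbtb46, a factor of conventional dendritic cells, averaged 51.8, 51.6 and 62.5 and was called in no comparison. Batf3, which conventional dendritic cells of the Clec9a type need, averaged 37.8, 41.4 and 56.4 and was also not called.

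Of the 10 general macrophage genes, 5 were higher in Apc/Tgif tumours than in wild-type colon (24.8% of all genes were), 3 were higher in Apc tumours (23.9% of all genes) and none was lower in either. Mpeg1, which encodes the pore-forming protein perforin-2, stood at 2139, 1618, 2022, 1977 and 1909 in wild-type colon, at 1913, 2891 and 4073 in Apc tumours and at 3089, 4795 and 6143 in Apc/Tgif tumours. Apc/Tgif tumours lay above all wild-type colons and overlapped Apc tumours. The differences were 0.54 ± 0.21 (adjusted p = 0.0429) and 1.18 ± 0.21 (adjusted p = 0.000113) over wild-type colon and 0.65 ± 0.19 between the genotypes (adjusted p = 0.025). The call between the genotypes was lost without Apc replicate 6 or 7 or Apc/Tgif replicate 4 or 6, at 0.56 to 0.57, and the call in Apc tumours was lost in 9 of 19 fits that left out 1 library, at 0.43 to 0.57. The difference between the genotypes was 1.04 in males (adjusted p = 0.00404) and 0.12 in females (adjusted p = 0.753), and the test of that sex difference missed the threshold (0.92, adjusted p = 0.0575).

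Adgre1, which encodes the F4/80 antigen, averaged 383 ± 101, 439.6 ± 120.0 and 726 ± 243 and was called higher in Apc/Tgif tumours than in wild-type colon (0.90, adjusted p = 0.00622) and over Apc tumours (0.70, adjusted p = 0.0427). The second call was lost in 10 of the 19 fits, at 0.59 to 0.71. Cd68, a lysosomal protein gene, rose in both tumours, by 0.76 and 1.00 (adjusted p = 0.00339 and 0.000291), without overlap with wild-type colon. Cd14, a co-receptor for bacterial lipopolysaccharide, stood at 1780.3, 2652, 1290.1, 2666 and 1945 in wild-type colon, at 3159.8, 5064 and 5929.7 in Apc tumours and at 2768, 3365 and 6886 in Apc/Tgif tumours. No tumour overlapped a wild-type colon for Cd14, and the differences were 1.21 ± 0.24 and 1.00 ± 0.24 (adjusted p = 0.000305 and 0.00156). Cd300a, an inhibitory receptor gene, was called higher in Apc/Tgif tumours than in wild-type colon (0.68, adjusted p = 0.0108). In Apc tumours it was 0.49 (adjusted p = 0.062), called with equal library totals (0.69, adjusted p = 0.00861) and under other settings, and the tumour genotypes differed by 0.19 (adjusted p = 0.548). Aif1, Lst1, Ms4a7, Ms4a6c and Sirpa were called in none of the 3 comparisons with the sexes together. Ms4a7 lay close to the threshold, at 0.76 between the genotypes (adjusted p = 0.0512).

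All 5 genes of Fc receptors and of signalling through ITAM adaptors were higher than in wild-type colon in both tumour genotypes, where 23.9% and 24.8% of all genes were, and none of the 5 was called between the genotypes. Tyrobp encodes the adaptor DAP12, through which the receptor encoded by Trem2 signals. Tyrobp stood at 218, 218, 253, 355 and 309 in wild-type colon, at 441, 574 and 755 in Apc tumours and at 464, 647 and 1034 in Apc/Tgif tumours. Trem2 stood at 50.75, 28.7, 49.0, 43.35 and 59.6 in wild-type colon, at 99.1, 117 and 140.5 in Apc tumours and at 89.9, 137 and 223 in Apc/Tgif tumours. For both genes every tumour lay above every wild-type colon.

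The log2 difference of Tyrobp was 1.12 ± 0.21 in Apc tumours (adjusted p = 0.000182) and 1.34 ± 0.21 in Apc/Tgif tumours (adjusted p = 2.29e-05). That of Trem2 was 1.39 ± 0.22 (adjusted p = 3.2e-05) and 1.63 ± 0.22 (adjusted p = 3.98e-06). Between the genotypes the 95% interval ran from -0.18 to 0.61 for Tyrobp and from -0.17 to 0.65 for Trem2.

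Fcgr3, a low-affinity receptor for IgG, stood at 392, 222, 319.5, 342 and 294 in wild-type colon, at 579, 946 and 1501 in Apc tumours and at 666, 718 and 2211 in Apc/Tgif tumours. Every tumour was above every wild-type colon, and the differences were 1.69 ± 0.26 (adjusted p = 2.62e-05) and 1.55 ± 0.26 (adjusted p = 5.7e-05). Fcer1g, the Fc receptor gamma chain, rose by 1.02 and 1.20 (adjusted p = 0.00221 and 0.000505). Fcgr1, the high-affinity IgG receptor, rose by 0.94 and 1.41 (adjusted p = 0.0117 and 0.000464), and its Apc tumours overlapped wild-type colon. With 1 mean per group and sex, male Apc tumours were called higher than male wild-type colon for Fcgr3 (1.40) and Trem2 (1.23), and not for Tyrobp (0.66, adjusted p = 0.067), Fcer1g (0.45, adjusted p = 0.283) or Fcgr1 (0.20, adjusted p = 0.666). In females Tyrobp, Fcer1g and Fcgr1 were 1.55, 1.57 and 1.68, all called, and the sex difference in this Apc over wild-type comparison passed the threshold for none of the 5 genes. Most neutrophil genes were called higher than in wild-type colon too. Of 15 neutrophil genes tested, 14 were higher in each tumour genotype, where 23.9% and 24.8% of all genes were. Their sums ran from 4357 to 9473 in wild-type colon (median 8618) and from 12703 to 32331 in Apc tumours (median 19649). In Apc/Tgif tumours the sums ran from 5890 to 29623 (median 7717), the highest being replicate 2. The median log2 difference of the 15 genes over wild-type colon was 5.20 in Apc and 3.96 in Apc/Tgif tumours. The sums of Apc/Tgif tumours therefore did not follow most genes of the list. Between the genotypes 3 of the 15 were lower, where 8.76% of all genes were, and 12 were not called. The median log2 difference there was -0.98, beside 0.22 for the 5 Fc receptor and adaptor genes. Of 10 mast cell genes, 7 were higher in Apc and 8 in Apc/Tgif tumours, with sums of 1628 to 2163, 1132 to 3630 and 1818 to 8520. Between the genotypes 5 of these 10 were higher and 1 lower, where 7.88% and 8.76% of all genes were. Their median log2 difference there was 1.38. The part of neutrophils and mast cells in the Fc receptor result was not tested.

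The scavenger, lectin and resident macrophage genes went in both directions. Of the 12, only Msr1 and Marco were called higher than in wild-type colon, in both genotypes. For Marco that call supports nothing, since it passed the filter through the tumours. Of the same 12, 4 were lower in Apc and 6 in Apc/Tgif tumours, where 25.2% and 25.5% of all genes were lower. Msr1, a scavenger receptor for modified lipoproteins, stood at 241, 212, 246, 196 and 158 in wild-type colon, at 425, 670.3 and 1605 in Apc tumours and at 458, 642 and 1050.2 in Apc/Tgif tumours. No tumour overlapped wild-type colon, and the differences were 1.89 ± 0.26 (adjusted p = 8e-06) and 1.68 ± 0.26 (adjusted p = 2.48e-05).

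Marco, a scavenger receptor for bacteria, was at 1.26, 5.71, 1.74, 0 and 1.14 in wild-type colon, which is a few reads at most. It stood at 17.0, 51.9 and 100.8 in Apc tumours and at 6.23, 20.1 and 49 in Apc/Tgif tumours. All tumours lay above wild-type colon. Marco was lower in Apc/Tgif than in Apc tumours, by 1.49 ± 0.49 on the log2 scale (adjusted p = 0.0432), a call lost in 12 of the 19 fits that left out 1 library (-1.53 to -1.27).

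Mertk fell in both genotypes. It encodes a receptor tyrosine kinase with which macrophages recognise dying cells. It stood at 1204, 844, 975, 1009.8 and 1164 in wild-type colon, at 159, 346 and 624 in Apc tumours and at 216, 299 and 478 in Apc/Tgif tumours. No tumour reached a wild-type colon. The differences were -1.74 ± 0.29 (adjusted p = 5.85e-05) and -1.81 ± 0.29 (adjusted p = 3.04e-05). Axl, its relative, was at 3154, 2418, 3102, 2537 and 2207 in wild-type colon, at 2111, 2442 and 2683 in Apc tumours and at 1673, 2592 and 3435 in Apc/Tgif tumours. The 3 groups of Axl overlapped throughout, and its differences were -0.11 and -0.03 over wild-type colon, with 95% intervals from -0.38 to 0.17 and from -0.30 to 0.25.

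Of the genes of resident macrophages, Folr2, a folate receptor gene, averaged 109.7 ± 42.1 in wild-type colon against 56.3 ± 24.7 for Apc and 37.8 ± 10.1 for Apc/Tgif tumours. It fell by 0.98 (adjusted p = 0.015) and by 1.49 (adjusted p = 0.000624). The fall in Apc tumours was lost without wild-type replicate 1 (-0.82), and Folr2 shares exon bases with an antisense gene. Timd4, a receptor for phosphatidylserine, averaged 19.7, 14.6 and 5.79 and was called lower in Apc/Tgif tumours alone (-1.82, adjusted p = 0.0085; -0.43 in Apc tumours, adjusted p = 0.532), and Apc/Tgif over Apc missed the threshold (-1.38, adjusted p = 0.059). Cd163, the receptor for haemoglobin bound to haptoglobin, averaged 93.9, 54.9 and 22.9 and was called lower in Apc/Tgif tumours (-2.44, adjusted p = 0.0131; -1.34 in Apc tumours, adjusted p = 0.16). By sex, Cd163 in Apc tumours was -3.03 in females (adjusted p = 0.000508) and 0.03 in males (adjusted p = 0.972), and in Apc/Tgif tumours it was -1.18 in females (adjusted p = 0.116) and -3.28 in males (adjusted p = 0.000454). Tests of these sex differences against wild-type colon gave adjusted p = 0.2 and 0.156.

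A pair of lectin genes was called lower in both genotypes with the sexes together. Cd209a, a mouse relative of DC-SIGN, averaged 27.1, 6.53 and 8.25 and fell by 2.83 and 2.33 (adjusted p = 0.0125 and 0.0351), the second call being lost in 7 of the 19 fits (-2.36 to -1.83). It was also lost with quality weights (-1.37) and quantile normalization (-1.97). By sex, Cd209a in Apc tumours was -0.95 in females (adjusted p = 0.231) and -4.30 in males (adjusted p = 0.000114). In Apc/Tgif tumours it was -3.95 in females (adjusted p = 7.89e-05) and -1.18 in males (adjusted p = 0.167). Tests of these sex differences gave adjusted p = 0.184 and 0.0894. Clec10a averaged 45.7, 29.1 and 26.7 and fell by 0.72 and 0.80 (adjusted p = 0.0485 and 0.0293), calls lost in 12 and in 3 of the 19 fits. Both calls were also lost with equal library totals (-0.53 and -0.65, adjusted p = 0.143 and 0.0713) and with quantile normalization (-0.44 and -0.45, adjusted p = 0.232 and 0.222). Mrc1, the mannose receptor, Stab1, a scavenger receptor also found in endothelium, and Vsig4, a complement receptor, were not called in the 3 comparisons with the sexes together. Mrc1 was 0.48 and 0.46 over wild-type colon (adjusted p = 0.106 and 0.124).

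**Figure D4:**
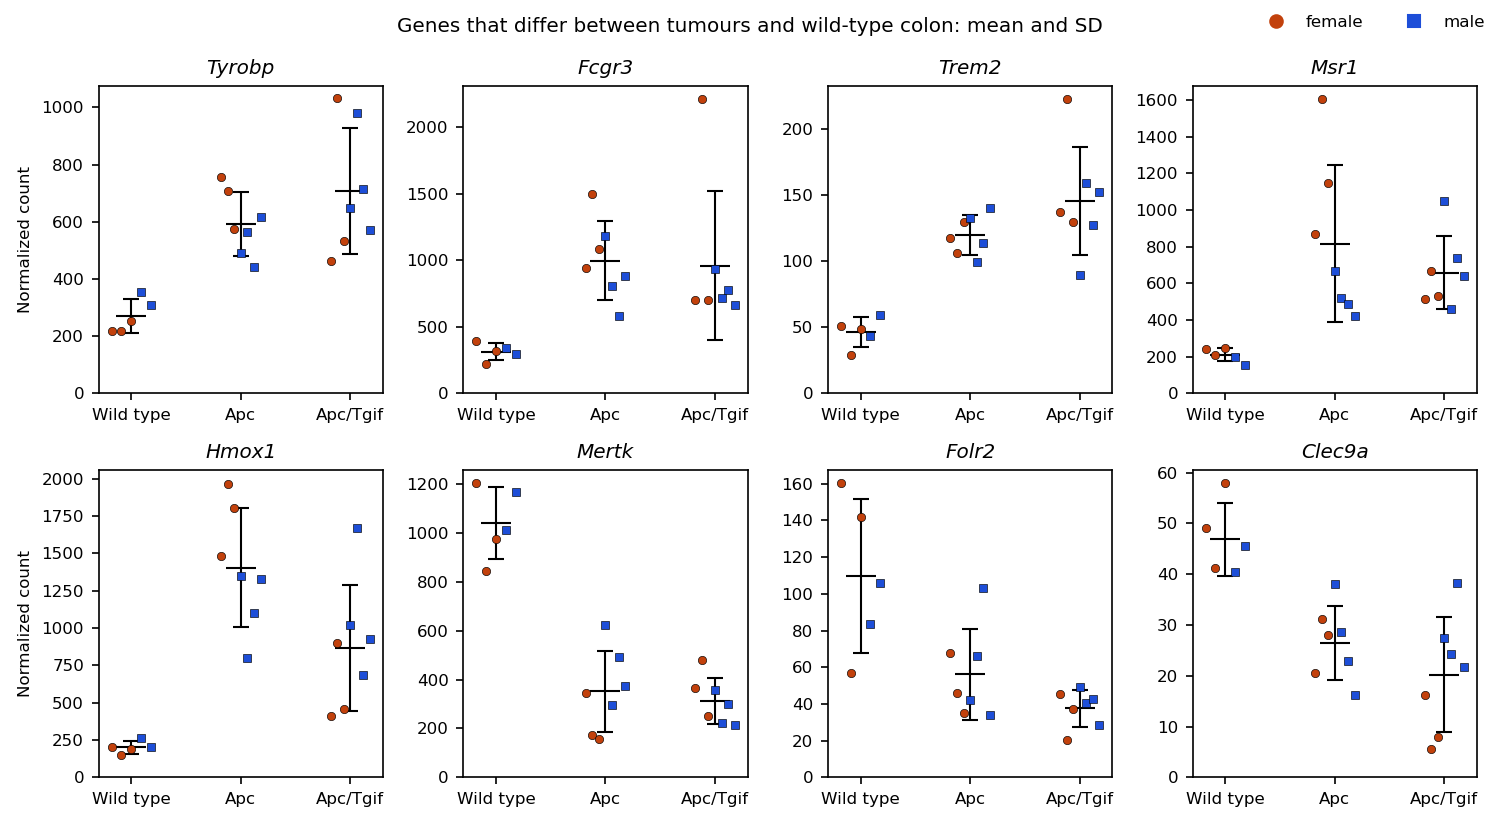
Normalized counts of 8 members by library, circles for females and squares for males, with the mean and SD of 5 wild-type colons, 7 Apc tumours and 7 Apc/Tgif tumours. For Tyrobp, Fcgr3, Trem2, Msr1 and Hmox1 every tumour lies above every wild-type colon, and for Mertk and Clec9a every tumour lies below.

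The markers of dendritic cell types were low in all groups. Clec9a, a receptor for dead cells, stood at 49.1, 41.1, 57.9, 40.5 and 45.6 in wild-type colon, at 16.2, 28.05 and 38.0 in Apc tumours and at 5.69, 21.8 and 38.2 in Apc/Tgif tumours. Every tumour lay below every wild-type colon. Clec9a fell by 0.92 ± 0.34 (adjusted p = 0.0343) and by 1.47 ± 0.34 (adjusted p = 0.00151); the first call was lost in 6 of the 19 fits, at -0.91 to -0.79. Siglech averaged 31.3, 17.4 and 15.5 and was not called (-1.21 and -1.55, adjusted p = 0.145 and 0.0639).

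The genes of co-stimulation and its inhibition did not move as a group. Cd83, a gene of mature dendritic cells and of B cells, averaged 525 ± 241, 186 ± 68.0 and 213 ± 83.4 and fell by 1.47 and 1.25 (adjusted p = 0.0026 and 0.00793). By sex, the fall of Cd83 was called in males (-2.29 and -1.91, adjusted p = 0.00175 and 0.00458). In females it was not called (-0.78 and -0.77, adjusted p = 0.185 and 0.188), and the sex difference passed the threshold in neither genotype. The 10 B cell genes of a separate list were all lower in both genotypes, with sums of 21239 to 53332 in wild-type colon, 3303 to 23125 in Apc and 6268 to 18976 in Apc/Tgif tumours, and their part in the fall of Cd83 was not tested. Cd80, a ligand of CD28, averaged 31.2 ± 12.2, 101.6 ± 76.4 and 50.9 ± 18.8 and was called higher in Apc tumours (1.46, adjusted p = 0.0131), a call lost in males alone (0.19, adjusted p = 0.72). Cd86, the other such ligand, averaged 132, 166 and 193 and was not called. Cd274, which encodes PD-L1, stood at 295, 451, 318, 661 and 662 in wild-type colon, at 175, 273 and 638 in Apc tumours and at 150.1, 244 and 628 in Apc/Tgif tumours. With the sexes together its groups overlapped and it was not called (-0.64 and -0.69, adjusted p = 0.143 and 0.113). With quality weights it was called lower (-0.71 and -0.79, adjusted p = 0.0316 and 0.026). By sex, Cd274 was called lower in males (-1.57 and -1.38, adjusted p = 0.0116 and 0.0185), against 2 male wild-type colons. It was not called in females (0.17 and -0.20), and the sex difference passed the threshold in neither genotype.

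Of the genes of lipid, heme and matrix handling, Hmox1, which encodes the inducible heme-degrading enzyme, had the smallest p of all 45 members in Apc tumours against wild-type colon. It stood at 201, 148, 193, 266 and 200.5 in wild-type colon, at 798, 1350 and 1968 in Apc tumours and at 409.8, 899.7 and 1668 in Apc/Tgif tumours. Every tumour lay above every wild-type colon, and the differences were 2.73 ± 0.29 (adjusted p = 3.56e-07) and 1.95 ± 0.29 (adjusted p = 1.54e-05). Hmox1 was lower in Apc/Tgif than in Apc tumours by 0.79 ± 0.26 on the log2 scale (adjusted p = 0.0469), a call lost in 15 of the 19 fits (-0.84 to -0.64).

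Apoe, which encodes the lipid carrier apolipoprotein E, stood at 7426, 6525, 8659, 11792 and 8974 in wild-type colon, at 9369, 11561 and 16339 in Apc tumours and at 13321, 19052 and 47920.4 in Apc/Tgif tumours. Apc/Tgif tumours lay above all wild-type colons and overlapped Apc tumours. The difference was 0.80 ± 0.21 between the genotypes (adjusted p = 0.0138), or 0.59 without Apc/Tgif replicate 2 (adjusted p = 0.0112), and 1.30 ± 0.24 over wild-type colon (adjusted p = 0.000132). Apc tumours over wild-type colon gave 0.50 ± 0.24 (adjusted p = 0.0885), called without wild-type replicate 4 or Apc/Tgif replicate 2, with equal library totals (0.70, adjusted p = 0.018), with quality weights (0.51, adjusted p = 0.00677), with quantile normalization (0.61, adjusted p = 0.0184) and with only the 2 groups (0.44, adjusted p = 0.0238). Tgfbi, a TGF-beta-induced matrix protein gene, averaged 3286 ± 474, 6083 ± 882 and 4678 ± 984. It rose by 0.88 and 0.49 (adjusted p = 8.49e-05 and 0.0114), and the difference between genotypes missed the threshold (-0.39, adjusted p = 0.0544). Gpnmb, a lysosomal glycoprotein gene, averaged 240.1 ± 18.9, 494 ± 295 and 566 ± 501 and was not called.

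The difference between the tumour genotypes depended on sex for 18 of the 45 members. With 1 mean per group and sex, the Apc/Tgif over Apc difference was called larger in males than in females for 14 members (31.1%, against 11.6% of all genes) and called smaller for 4 (8.89%, against 11.9%). In females 6 members were higher (13.3%, against 13.7%) and 9 were lower (20%, against 14.1%) in Apc/Tgif tumours, and in males 13 were higher (28.9%, against 8.77%) and 2 were lower (4.44%, against 9.8%). Vsig4 is counted in the 18, in the 4 and in the 2 lower in males. It passed the filter through the male Apc tumours, so these calls of it support nothing. C1qa was called higher in females (0.51, adjusted p = 0.0234) and in males (0.66, adjusted p = 0.00324), as was C1qc (0.69 and 0.51, adjusted p = 0.0138 and 0.0416). C1qb was called in females (0.82, adjusted p = 0.00762) and not in males (0.47, adjusted p = 0.0766), as was Apoe (1.25 and 0.46, adjusted p = 0.00323 and 0.182), while Csf1r was called in males (0.76, adjusted p = 0.00554) and not in females (0.33, adjusted p = 0.219). The sex difference itself passed the threshold for none of these 5 genes. In a fit of the females alone, C1qa and C1qc missed the threshold too (adjusted p = 0.0592 and 0.06). The genes described next were chosen after their values were seen, and the groups hold 3 or 4 animals.

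Cd209a was at 6.27 to 26.5 in female and 0 to 2.13 in male Apc tumours, and at 0 to 3.21 in female and 7.5 to 17.6 in male Apc/Tgif tumours. Siglech followed the same order, at 20.8 to 48.05, 3.15 to 12.3, 1.34 to 4.33 and 16.3 to 33.6. For both genes the sexes did not overlap in either tumour genotype, and the order of the sexes was opposite in the genotypes. The male minus female difference of the genotype effect was 6.13 ± 0.83 for Cd209a (adjusted p = 0.000354) and 4.57 ± 0.67 for Siglech (adjusted p = 0.000484).

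Cd163 and Vsig4 had the reverse order. Cd163 was at 4.98 to 36.0 in female and 54.5 to 140.1 in male Apc tumours, and at 28 to 67.8 in female and 5.72 to 9.46 in male Apc/Tgif tumours. Vsig4 was at 0 to 5.2, 17.3 to 27.4, 4.03 to 7.61 and 0 to 2.68 in the same groups. The sexes again did not overlap within a tumour genotype. The male minus female difference was -5.17 ± 0.79 for Cd163 (adjusted p = 0.00055). That of Vsig4 was -5.02 ± 0.83, given with no test. Vsig4 reached the filter's minimum of 10 only in the male Apc tumours, where it is high, and in wild-type replicate 5.

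General macrophage genes shared the pattern of Cd209a in part. Lst1 was at 70.03 to 99.6 in female and 41.1 to 57.4 in male Apc tumours and at 24.2 to 51.1 in female and 71.7 to 120.0 in male Apc/Tgif tumours (male minus female 2.20 ± 0.39, adjusted p = 0.00147). Ms4a7 was at 386 to 521 and 172 to 339.8, then at 312 to 422 and 511 to 792 (1.75 ± 0.34, adjusted p = 0.00245). Adgre1, Ms4a6c, Fcgr1, Cd86 and Aif1 were higher in male Apc/Tgif than in male Apc tumours, by 0.87 to 1.30, while in females their differences ran from -0.39 to -0.10 and none was called.

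Cd80, Msr1 and Hmox1 had their highest values in female Apc tumours. Cd80 was at 131.8 to 209.6 in female and 34.9 to 59.9 in male Apc tumours, and at 28.5 to 45.75 in female and 45.5 to 78.2 in male Apc/Tgif tumours. Its genotype difference was -2.30 in females (adjusted p = 0.000324) and 0.50 in males (adjusted p = 0.278). Msr1 was at 868 to 1605 in female and 425 to 670.3 in male Apc tumours, and at 516 to 666 and 458 to 1050.2 in the Apc/Tgif tumours. Hmox1 was at 1486 to 1968 and 798 to 1350, then at 409.8 to 899.7 and 683 to 1668, and the lower value in Apc/Tgif tumours was called in females (-1.65, adjusted p = 0.00129) and not in males (-0.14, adjusted p = 0.761). Clec9a, Flt3, Batf3 and Mertk complete the 18, and leaving out single libraries ended the call for Aif1, Clec9a, Flt3, Mertk, Fcgr1 or Cd86 in 9, 7, 8, 4, 2 and 1 of the 19 fits.

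**Figure D5:**
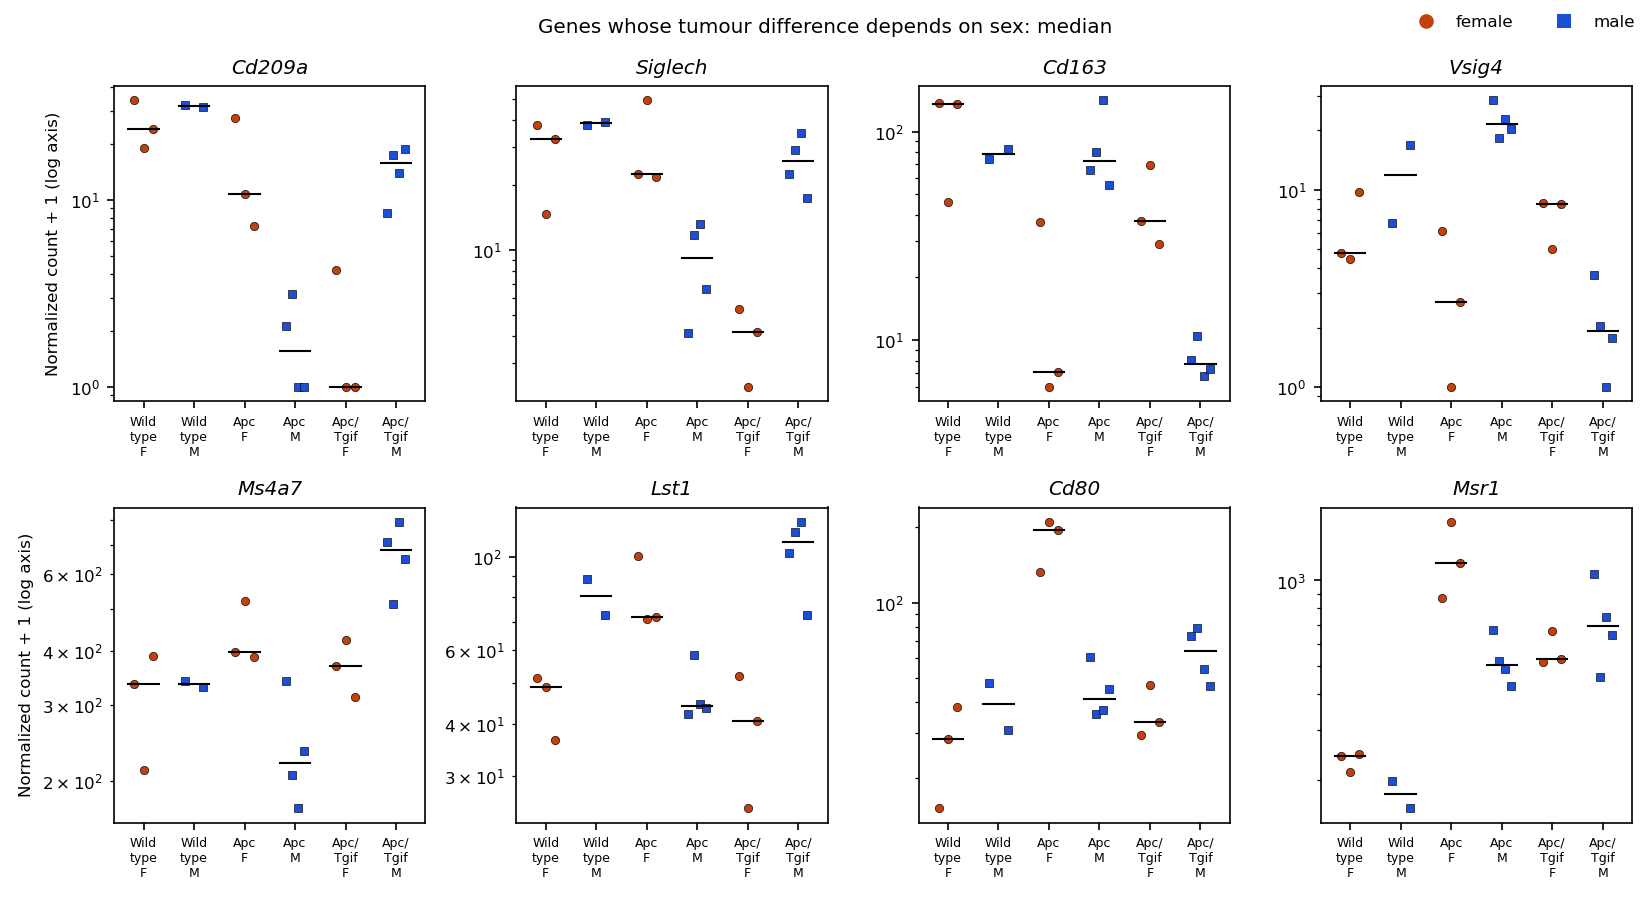
Normalized count + 1 on a log axis for 8 members in females (F, circles) and males (M, squares) of each group, with the median; the groups hold 2 to 4 animals. In Cd209a, Siglech and Lst1 the female Apc and male Apc/Tgif tumours are high and the male Apc and female Apc/Tgif tumours are low, and in Cd163 and Vsig4 the male Apc tumours reach the highest values among the tumours.

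The tumour against wild-type comparisons did not show such a difference for any member at the adjusted threshold. For Apc tumours 0 of 45 members were called by limma, with 0.0108% of all genes. For Apc/Tgif tumours 0 of 45 were called, with 3.4% of all genes. Wild-type colon came from 3 females and 2 males, so a missed threshold here does not show that the sexes were alike. Some other leukocyte lists moved with the sex pattern between the tumours. The male minus female difference was called above 0 for 4 of 8 pan-leukocyte genes and 3 of 12 T and NK cell genes. It was also called above 0 for 3 of 10 mast cell genes and 6 of 19 further dendritic cell genes, beside 11.6% of all genes. Of 15 neutrophil genes 0 were called above 0 and 3 below 0, beside 11.9% of all genes called below 0. The limma test called none of 10 B cell genes in either direction. The pan-leukocyte sum was 9941 to 11596 in female and 5280.0 to 7532 in male Apc tumours and 5637 to 9983 in female and 9110.4 to 11968 in male Apc/Tgif tumours. The part of these in the sex pattern was not tested.

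Related genes outside the 45 were taken from lists by role, and their counts are to be read beside the shares of all genes, which were 23.9% higher and 25.2% lower in Apc tumours, 24.8% and 25.5% in Apc/Tgif tumours, and 7.88% and 8.76% between the genotypes. Of the ligands and partners of the members, 6 of 20 were higher and 6 lower in Apc tumours than in wild-type colon, 5 higher and 7 lower in Apc/Tgif tumours, and 2 higher and none lower between the genotypes. Csf1 rose over wild-type colon in both genotypes, by 0.67 and 0.60 (adjusted p = 0.0225 and 0.0397), while Il34 was -0.49 (adjusted p = 0.0781) and -0.67 (adjusted p = 0.0186). Flt3l, the ligand of the Flt3 receptor, was at 127 to 191 in wild-type colon, 55.3 to 86.0 in Apc tumours and 91.1 to 133 in Apc/Tgif tumours. It fell by 1.16 and 0.44 (adjusted p = 2.52e-05 and 0.0454), and Apc/Tgif tumours were above Apc tumours without overlap (0.72, adjusted p = 0.00444). Gas6, a bridging ligand for Mertk and Axl, was at 15666 to 18046, 3877 to 10083 and 9177 to 24684. It fell in Apc tumours by 1.52 (adjusted p = 4.42e-05), and it was higher in Apc/Tgif than in Apc tumours by 1.35 (adjusted p = 0.000381). Hp, which encodes haptoglobin, whose complex with haemoglobin Cd163 takes up, was at 5.71 to 83.5, 1818 to 6702 and 378 to 7105. Its log2 differences from wild-type colon were 7.34 and 5.89, given with no test. Not all its wild-type values reached the minimum of 10, so Hp passed the filter through the tumours. The higher counts of this list over wild-type colon include it.

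The same shares apply to the further lists. Of 13 further complement genes, 2 were higher and none lower in Apc/Tgif than in Apc tumours, namely C2 (1.34, adjusted p = 0.0049) and Cfb (0.64, adjusted p = 0.027). Of 39 further monocyte and macrophage genes tested, 16 were higher and 6 lower in Apc tumours over wild-type colon, 18 higher and 2 lower in Apc/Tgif tumours, and 5 higher and 1 lower between the genotypes. Arg1, which encodes arginase 1, was at 6.09 to 24.0, 2359 to 3875 and 438 to 2091. It was above wild-type colon by 7.76 and 5.93, given with no test, since it too passed the filter through the tumours. The higher counts of this list over wild-type colon include it. Between the genotypes Arg1 fell by 1.83 (adjusted p = 0.000305). Cybb, a subunit of the phagocyte oxidase, was higher in Apc/Tgif than in Apc tumours by 0.89 (adjusted p = 0.0103). Ctss, a lysosomal protease gene, fell by 1.43 and 1.19 over wild-type colon (adjusted p = 1.28e-07 and 8.63e-07). Of 15 further genes of lipid-handling macrophages, 5 were higher and 5 lower in Apc tumours and 5 higher and 7 lower in Apc/Tgif tumours; Spp1, which encodes osteopontin, was at 1.53 to 9.67, 680 to 7019 and 354 to 4603. Of 19 further dendritic cell genes, 5 were higher and 6 lower in Apc and 3 higher and 7 lower in Apc/Tgif tumours, and Fscn1, an actin-bundling gene of mature dendritic cells, was lower in Apc/Tgif than in Apc tumours by 1.31 on the log2 scale (adjusted p = 7.31e-05). Ptprc, the common leukocyte antigen CD45, fell by 0.91 and 0.79 over wild-type colon (adjusted p = 0.0215 and 0.0421).

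Relations between 7 pairs of members were computed across the 7 tumours of each genotype, 14 relations in all, with exact permutation tests of log2 values. In Apc/Tgif tumours C1qb and C1qc correlated at Pearson r = 0.967 (exact permutation p = 0.00833, adjusted p = 0.0319) and Spearman rho = 0.643 (exact permutation p = 0.139, adjusted p = 0.243), and r was 0.834 without replicates 2 and 7. Tyrobp and Fcer1g correlated at r = 0.892 (exact permutation p = 0.00913, adjusted p = 0.0319) and rho = 0.929 (exact permutation p = 0.00675, adjusted p = 0.0472), and r was 0.946 without replicates 2 and 5. C1qa correlated with C1qb at r = 0.769 and with C1qc at r = 0.843 (exact permutation p = 0.00556 and 0.00853, adjusted p = 0.0319 for both); their rho values were 0.857 and 0.714 (adjusted exact permutation p = 0.0833 and 0.206), and r became 0.563 and 0.882 without replicates 2 and 4. In Apc tumours the C1q genes spanned a narrow range and no Pearson relation passed the adjusted threshold by the exact permutation test, the largest being Csf1r with C1qa at r = 0.827 (exact permutation p = 0.0192, adjusted p = 0.0539) and rho = 0.929 (exact permutation p = 0.00675, adjusted p = 0.0472). Each sex holds 3 or 4 tumours of a genotype, too few for a correlation within a sex.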

How the data were processed

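Poly-A RNA of 19 mouse colon and colon tumour libraries was read in single 75-base reads, per the labels' protocols. The signal values used are gene-level normalized counts as the authors deposited them; Salmon and DESeq2 and the build GRCm38 (mm10) are named, per the submitters' processing notes, with versions not given in the sources used here. They are not whole reads: 82.1% to 84.8% of low values were whole multiples of the estimated step, so no count model was used. Approximate depth was 28700000 to 49100000 reads a library.

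Values were taken as log2(normalized count + 1). Genes at 10 or more in at least 5 libraries were kept, 18445 of 32694. limma 3.58.1 in R 4.3.3, with trend and robust variance, fitted all 19 libraries with terms for group and sex, and a second fit gave 1 mean per group and sex; tests were two-sided, with Benjamini-Hochberg adjustment over all genes tested at 0.05. The fit was tested on simulated data first. Pairs used exact permutation tests in SciPy 1.17.1 under Python 3.11.15. Each library is a separate animal.

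Members and lists were chosen with earlier results of these data known. Values by library are given for the 6 members with the smallest p in each comparison and the member with the highest mean in each role; of other lists, at most 3 genes with the smallest p in a comparison are named, plus Ptprc, Csf1, Il34 and Flt3l. Genes named by sex were chosen after their values were seen. Promoter sequences came from RefSeq and gene positions from GENCODE, both on GRCm38. Reads of overlapping genes on opposite strands cannot be told apart here, which concerns Csf1r, Ms4a6c, Folr2, Stab1 and Cd274. The alternatives were other pseudocounts, filters, scalings and weights, each sex alone, and leaving out each library.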

Additional observations from a re-analysis of the deposited data

Results flagged for a closer look

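Single libraries stood apart from the rest of their group for 7 of 135 gene and group combinations examined, where chance flags about 1 in 20. Apc/Tgif replicate 2 stood apart as the highest of its group for 5 genes. It was also the highest for other members, such as C1qa, Cd14 and Tyrobp, without standing apart by that measure. Its 45 members summed to 97843, where the next library summed to 62336. It held 3983.02 for C1qb, where the next library held 2170.02, 2973.17 for C1qc (next 2095.63), 151.03 for Batf3 (next 53.8), 2211.4 for Fcgr3 (next 933.7) and 47920.4 for Apoe (next 22520.9). Wild-type replicate 2 stood apart as the lowest of its group for Ms4a7, at 211.32 (next 328.52), and for Siglech, at 13.66 (next 31.44). Wild-type replicate 2 was also among the libraries with over 2% of Rn45s.

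The genotype difference between the tumours, Apc/Tgif over Apc, differed between males and females for 18 members by limma's test of that difference (adjusted p under 0.05). The male minus female value on the log2 scale was 6.13 for Cd209a, 4.57 for Siglech, 2.80 for Cd80, 2.20 for Flt3, 2.20 for Lst1 and 1.75 for Ms4a7. It was 1.54 for Clec9a, 1.51 for Hmox1, 1.46 for Msr1, 1.40 for Adgre1, 1.36 for Fcgr1, 1.26 for Cd86, 1.16 for Aif1 and 1.14 for Ms4a6c. It was below 0 for Cd163 at -5.17, Vsig4 at -5.02, Batf3 at -1.87 and Mertk at -1.40. The call of Vsig4 supports nothing, since it passed the filter through the male Apc tumours. The groups hold 3 females and 4 males of each tumour genotype, and 11.6% and 11.9% of all genes had such a difference in the 2 directions.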

How the results depend on the processing

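Of 30 alternative settings, and 2 more chosen after seeing the data, those named here moved a count of called members by over 1.5 times or turned a direction; the cause was not tested. Members higher in Apc tumours than in wild-type colon numbered 13, and 23 with equal library totals, 22 with quality weights and 8 in males alone. Of all 18445 genes, 4415 were called higher there, and 6160, 5530 and 3051 under the same settings. Members lower there numbered 7, and 4 with equal totals, 2 in females alone and 4 to 8 without single libraries, with 4 lower when wild-type replicate 1 was left out. All genes called lower there numbered 4639, and 3417 with equal totals, 4076 in females alone and 4256 without wild-type replicate 1. Members higher in Apc/Tgif than in Apc tumours numbered 7, and 3 in females alone and 15 in males alone. All genes called higher there numbered 1453, and 2230 in females alone and 1544 in males alone. Members lower there, Hmox1 and Marco, numbered 2, and 1 with a pseudocount of 0.5 or quantile normalization, 0 with no filter or with only the 2 groups, 8 in females alone, 5 as the mean of the effects in both sexes, and 0 to 3 without single libraries. All genes called lower there numbered 1615, and 1598 with that pseudocount, 1452 with quantile normalization and 1262 with only the 2 groups. They numbered 1571 of 25058 with no filter, 2218 in females alone and 2207 as the mean of both sexes. Among differences between the tumours past the threshold in at least 1 of the fits compared, the direction reversed in females alone for Adgre1 (-0.10), Cd209a (-3.00) and Lst1 (-1.09), and in males alone for Siglech (1.63). Over all alternatives, single members gave 4003 group differences on the same side of the threshold, of which 132, called in neither fit, changed sign, with 149 newly past the threshold, 152 no longer past it and those 4 reversed. The calls of C1qa, C1qb, C1qc, Csf1r and Apoe between the tumours held in all 19 fits that left out 1 library, and without the 3 libraries high in Rn45s (0.62, 0.64, 0.62, 0.60 and 0.89), but were lost in females alone for C1qa (0.51), C1qc (0.69) and Csf1r (0.33) and in males alone for Apoe (0.46). Without those 3 libraries the calls over wild-type colon were lost in Apc/Tgif tumours for Adgre1 (0.66), Cd300a (0.61), Cd83 (-0.84), Tgfbi (0.45), Timd4 (-1.80) and Cd209a (-2.66), and in Apc tumours for Mpeg1 (0.46) and Clec9a (-1.08). No paired analysis was possible because the replicate numbers run through each group and tie no animal of one group to an animal of another. Members with means under 50 rest on few reads, so their fold changes depend on the pseudocount.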
